A study of Mus musculus with 2 samples.

Results

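The sodium-potassium ATPase, or sodium pump, was examined through 4 of its subunit genes, Atp1a4, Atp1b1, Atp1b2 and Atp1b3, in the hippocampus of juvenile mice. The genes were chosen by symbol, and all 4 were found among the 55536 annotated genes of the deposited tables, with 14 of the 141767 annotated transcripts. Alpha subunit genes other than Atp1a4 were not analysed here. The data were 2 total RNA-seq libraries, numbered as biological replicates 1 and 2 of 1 group, so there is no contrast between conditions and no test between groups. Both came from male mice of the B6CASTF1/J strain at 25 days of age, an F1 hybrid strain, with no treatment named in the labels, and the tissue was labelled as a layer of the hippocampus. The input was 300 ng of RNA per library, to which ERCC spike-ins had been added. The labels give the libraries separate tissue samples under the same donor identifier, so whether they came from different mice is not known, and their spread may reflect technical handling only. Reads from the parental alleles are not separated in these tables.

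The sodium pump uses ATP to move sodium out of the cell and potassium in, and in the brain it restores the ion gradients that neuronal firing runs down. The alpha subunit is the catalytic part, which binds the ions and splits ATP. The beta subunit is a glycoprotein that spans the membrane and is needed for the alpha subunit to fold, leave the endoplasmic reticulum and reach the cell surface. Small FXYD proteins bind the assembled pump and adjust its affinity for ions.

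Expected counts over annotated genes summed to 30635891 in replicate 1 and to 35713471 in replicate 2, with 0.367 and 0.414% of counts on spike-ins. Levels are in TPM, which has the same sum in each library. It divides reads by transcript length, so genes can be compared with each other, given the lengths used. Unless another table is named, values come from the gene table with RSEM's column layout. A second transcript table, with kallisto's column layout, was made from the same reads and is given beside it. Markers fitting the tissue label were present: neuronal genes averaged 446 to 858 TPM, the astrocyte genes 180 to 914 and the oligodendrocyte genes 262 to 950 TPM. Hippocampal excitatory neuron genes averaged 25.0 to 664 TPM. Of the choroid plexus genes, Ttr averaged 54.5 TPM and the other 4 averaged 0.450 to 3.78 TPM. Microglial and endothelial markers averaged 21.5 to 35.2 TPM. The tissue is a mixture of cells, so fewer cells of a type and less RNA per cell cannot be told apart, and the share of each cell type in the members' levels was not measured.

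Among the beta subunits, Atp1b1 RNA was by far the most abundant, Atp1b2 came next and Atp1b3 was lowest, while Atp1a4 was at or below the limit of detection. This order held in both libraries and in both tables, and no member's 2 values overlapped those of its neighbour in the order. Atp1b1 ranked 18 of 22015 nuclear protein-coding genes by mean TPM, Atp1b2 ranked 309 and Atp1b3 ranked 3247. All 3 beta genes therefore stood above the median of those genes, 3.42 TPM, and above the median of 15.0 TPM of the 12964 that averaged at least 1 TPM. Atp1a4 ranked 17272.

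**Figure D1:**
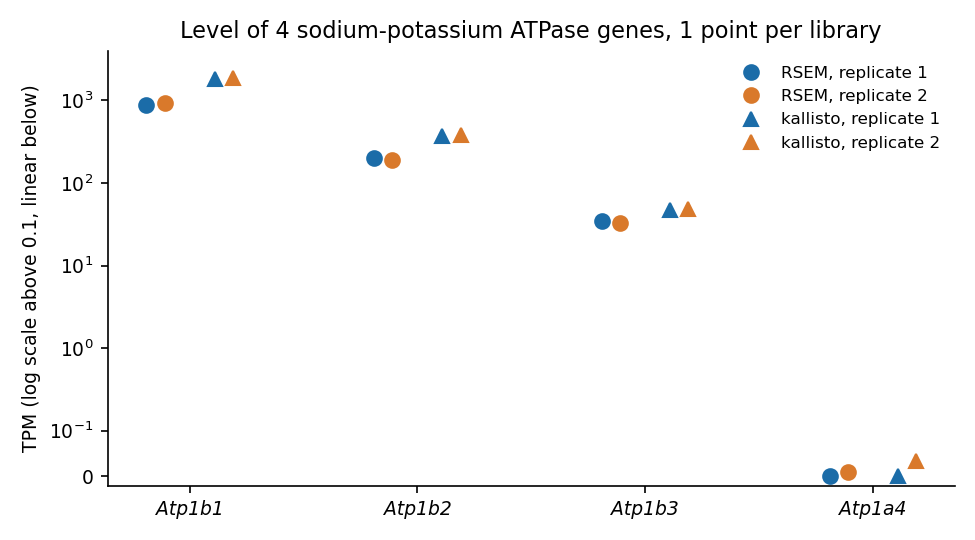
Level of each gene in TPM (vertical axis, logarithmic above 0.1 and linear below), with 1 point per library; circles are the RSEM table and triangles the kallisto table. Atp1b1 lies near 909 TPM in RSEM and 1859 TPM in kallisto, and Atp1a4 lies at or near 0 in both.

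Atp1b1 (ENSMUSG00000026576.12) lies at chr1:164437109-164458355 on the minus strand of mm10 and encodes the most widely expressed beta subunit. It had 883 TPM in replicate 1 and 935 TPM in replicate 2, a mean of 909 ± 37.4 TPM (SD, n = 2), from 40599 and 52286 expected counts. The deposited posterior means were lower, 855 TPM in replicate 1 and 911 TPM in replicate 2. In each library the TPM given above lay over the credibility interval of the posterior mean. The intervals, whose level is not stated, ran from 839 to 871 TPM in replicate 1 and from 896 to 926 TPM in replicate 2. These intervals did not overlap between the libraries. As their level is unknown, they are used here only as a score. The kallisto table gave 1822 and 1897 TPM, a mean of 1859 ± 52.5 TPM.

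Atp1b2 (ENSMUSG00000041329.13) lies at chr11:69599736-69605942 on the minus strand and encodes a beta subunit first described as an adhesion molecule on glia. It had 201 TPM in replicate 1 and 191 TPM in replicate 2, a mean of 196 ± 7.09 TPM, from 11466 and 12933 expected counts. Its posterior means were 195 TPM in replicate 1 and 187 TPM in replicate 2. Their deposited intervals, 191 to 200 TPM in replicate 1 and 183 to 190 TPM in replicate 2, lay just apart. For this gene too, the listed TPM lay over the interval in each library. In kallisto the values were 375.7 and 376.4 TPM, so the order of the replicates was the opposite there and the gap was small.

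Atp1b3 (ENSMUSG00000032412.8) lies at chr9:96332655-96364442 on the minus strand and encodes a further beta subunit found in many tissues. It had 34.4 TPM in replicate 1 and 33.1 TPM in replicate 2, a mean of 33.8 ± 0.919 TPM, from 1218 and 1478 expected counts. Its intervals, 31.3 to 36.4 TPM and 30.6 to 34.6 TPM, overlapped over most of their length. The kallisto values were 46.7 and 48.0 TPM, so the order of the replicates was the opposite there. In RSEM the full-length transcript Atp1b3-201 alone was also higher in replicate 2, at 31.7 TPM against 30.3 TPM in replicate 1.

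Atp1a4 (ENSMUSG00000007107.6) lies at chr1:172223513-172258414 on the minus strand and encodes an alpha subunit known for its expression in male germ cells and its role in sperm motility. It had 0 expected counts in replicate 1 and 1 in replicate 2, listed as 0 and 0.01 TPM. In kallisto it had 0 and 2.01 counts. The count of 0 in replicate 1 allows up to 3 counts, which for the full-length transcript Atp1a4-201 corresponds to 0.0427 TPM. This limit covers counting error only. For replicate 2 the upper bound of the deposited interval of Atp1a4-201 was 0.0566 TPM. The gene was thus at or near the limit of detection at this depth. Its posterior mean of 0.22 and 0.20 TPM lay almost wholly on Atp1a4-202, a 322-base non-coding transcript with 0 counts in both libraries. The male germ cell genes Prm1, Prm2, Tnp1, Tnp2 and Acrv1 also had 0 expected counts in both libraries. The gene Gm37950, annotated on the opposite strand inside an intron of Atp1a4, had 0 counts as well.

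The proportions among the beta genes kept the same order in both libraries. The ratio of Atp1b1 to Atp1b2 was 4.39 in replicate 1 and 4.90 in replicate 2, a mean of 4.64 ± 0.359. The ratio of Atp1b1 to Atp1b3 was 25.6 and 28.2, a mean of 26.9 ± 1.84. The ratio of Atp1b2 to Atp1b3 was 5.84 and 5.76, a mean of 5.80 ± 0.0521. Summed TPM of the 3 beta genes was 1118 in replicate 1 and 1160 in replicate 2. Atp1b1 made up 79.8 ± 1.22% of that sum, Atp1b2 17.2 ± 1.07% and Atp1b3 2.97 ± 0.157% (SD, n = 2). The kallisto table gave Atp1b1 nearly the same share, 81.4%, but put Atp1b1 39.3 times and Atp1b2 7.95 times above Atp1b3. RNA levels are not protein levels, and the subunits present in assembled pumps were not measured.

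The TPM scales of the tables differ, and at the gene level the members did not shift by the same factor. Over 12935 nuclear protein-coding genes at 1 TPM or more in RSEM and above 0 in kallisto, the median kallisto value was 1.57 times the RSEM value. For Atp1b1 the factor was 2.05, and 10.5% of those genes had a larger factor. For Atp1b2 it was 1.92, with 15.5% of genes above it, and for Atp1b3 it was 1.40, with 84.4% above it. For the full-length coding transcripts alone the factors lay closer together. They were 1.45 for Atp1b1-201, 1.32 for Atp1b2-201 and 1.53 for Atp1b3-201.

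The members differ enough in sequence for their reads to be told apart from each other. Atp1a4 was not compared with the other alpha subunit genes. The longest exact stretch shared by transcripts of any pair was 19 bases, between Atp1b1 and Atp1b2, and other pairs shared at most 13 bases. The deposited posterior SD of the gene count was 0 for Atp1b1 and Atp1b2 and at most 0.450 counts for Atp1b3. Coding sequences were 54.5% identical between Atp1b1 and Atp1b2, 49.9% between Atp1b1 and Atp1b3 and 55.2% between Atp1b2 and Atp1b3, counted over aligned positions with gaps. The full-length coding transcripts hold 304 codons in Atp1b1-201, 290 in Atp1b2-201 and 278 in Atp1b3-201, against 1032 in Atp1a4-201.

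Exon 2 is 129 bases long and wholly coding in the full-length transcript of each beta gene, and it is printed to show what the 3 genes have in common and where reads can separate them. The letters come from the GENCODE M21 transcripts and lie on the minus strand of mm10, at chr1:164453489-164453617 for Atp1b1, chr11:69603425-69603553 for Atp1b2 and chr9:96345765-96345893 for Atp1b3. Capitals mark the 63 of 129 positions (48.8%) at which all 3 genes have the same base.
Atp1b1 exon 2: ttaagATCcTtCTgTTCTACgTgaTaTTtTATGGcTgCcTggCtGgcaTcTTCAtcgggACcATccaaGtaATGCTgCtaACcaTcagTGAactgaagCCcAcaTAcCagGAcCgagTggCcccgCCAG
Atp1b2 exon 2: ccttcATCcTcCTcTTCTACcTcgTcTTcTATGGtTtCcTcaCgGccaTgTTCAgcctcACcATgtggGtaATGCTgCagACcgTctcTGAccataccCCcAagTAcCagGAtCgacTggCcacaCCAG
Atp1b3 exon 2: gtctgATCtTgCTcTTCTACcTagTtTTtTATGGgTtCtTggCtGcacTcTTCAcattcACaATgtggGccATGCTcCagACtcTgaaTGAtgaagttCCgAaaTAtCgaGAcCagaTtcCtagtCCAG
By pairs, exon 2 was 66.7% identical between Atp1b1 and Atp1b2, 56.6% between Atp1b1 and Atp1b3 and 62.0% between Atp1b2 and Atp1b3. The capitals fall in short runs broken by differing bases, so no long stretch of exon 2 is common to all 3 genes.

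In each beta gene the full-length coding transcript, named with the suffix 201, took most of the gene's TPM in both tables. Its share was 88.0 ± 2.73% in Atp1b1, 88.9 ± 1.02% in Atp1b2 and 91.8 ± 5.43% in Atp1b3 in the RSEM table (SD, n = 2). In kallisto the share was 62.6 ± 2.35% in Atp1b1, 61.4 ± 2.73% in Atp1b2 and 100% in Atp1b3. The tables therefore differed by more than the replicates did on how much RNA to assign to shorter transcripts.

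**Figure D2:**
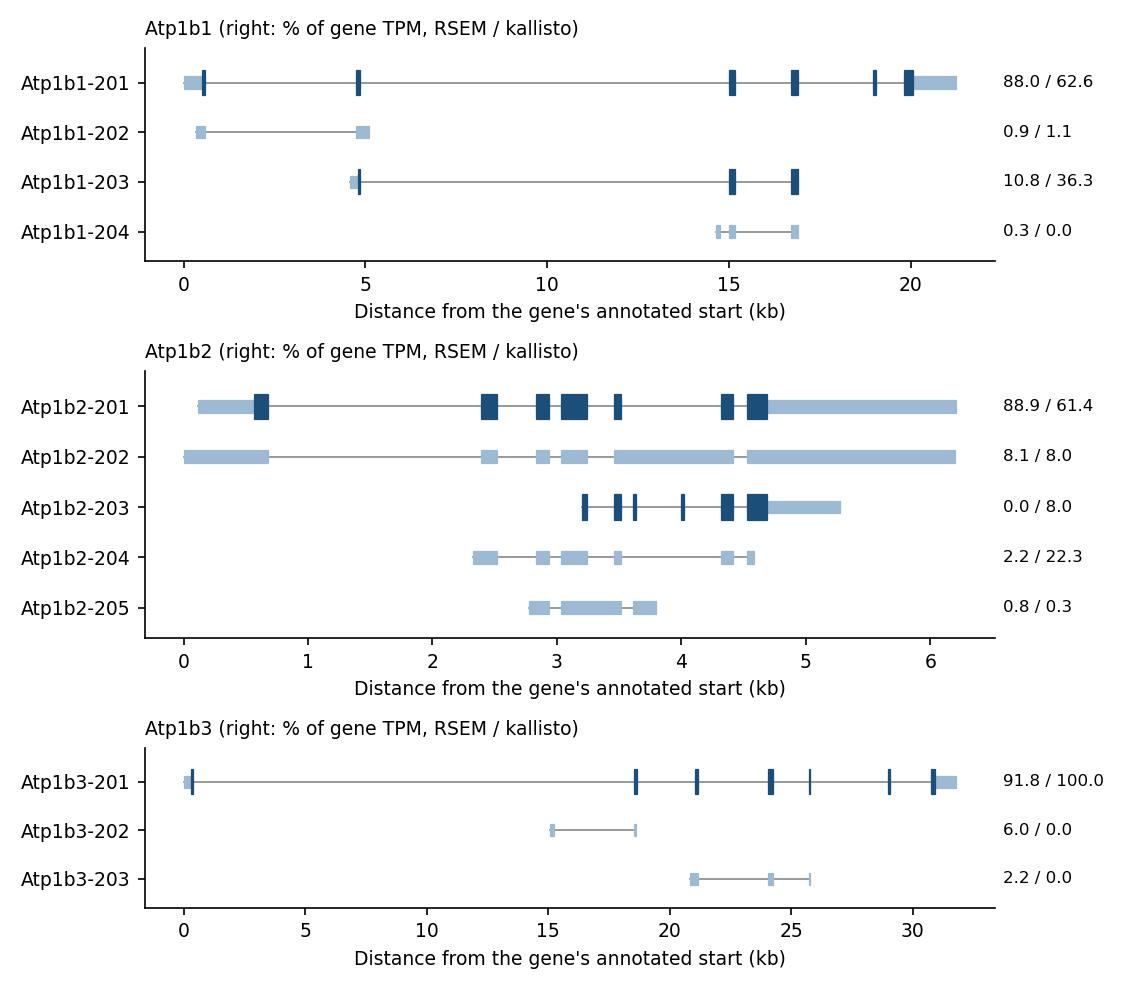
Annotated transcripts of the 3 beta genes, drawn 5′ to 3′ by distance from the gene's annotated start in kb; dark blocks are coding exons, light blocks other exonic sequence and lines introns, and the numbers at the right are mean shares of the gene's TPM in RSEM and kallisto. The short transcripts that gain most in kallisto, Atp1b1-203 and Atp1b2-204, lie within the span of the full-length transcript.

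In Atp1b1 the disagreement concerned Atp1b1-203, a 628-base coding model of 3 exons whose 3′ end is marked incomplete in the annotation. It shares 468 of its bases with Atp1b1-201 and has 160 in no other transcript of the gene. In RSEM it took 12.4% of the gene's TPM in replicate 1 and 9.11% in replicate 2, and in kallisto 37.8 and 34.8%. In counts it was a minor form in both tables, with 1209 and 1102 expected counts (2.54% of the gene's counts) in RSEM and 3091 and 3566 estimated counts (6.83%) in kallisto. The effective length used to turn counts into TPM was 529 bases in RSEM, against 280 and 286 bases in kallisto. Its mean TPM was 97.5 in RSEM and 674 in kallisto, a ratio of 6.92.

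The exon 1 to exon 2 junction separates Atp1b1-201 from Atp1b1-203, which starts downstream of exon 1. The junction is printed for that reason, with capitals marking exon 2. Its flanks lie at chr1:164457761-164457790 and chr1:164453588-164453617, and the run occurs in Atp1b1-201 and in Atp1b1-202, a minor form that keeps part of an intron.
Atp1b1-201 exon 1 to exon 2: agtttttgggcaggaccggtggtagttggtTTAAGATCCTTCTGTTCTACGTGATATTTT
The first 30 bases are exon 1 and the last 30 exon 2, both coding. The tables give no reads per junction, so the use of this junction was not counted.

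In Atp1b2 a transcript that keeps an intron had a similar mean share of the gene's TPM in both tables, though not of its counts. Atp1b2-202 is a 3751-base non-coding model that retains the 801-base intron between exons 5 and 6. It took 8.11 and 8.06% of the gene's TPM in RSEM (8.08 ± 0.0356%) and 8.47 and 7.62% in kallisto (8.04 ± 0.604%). In TPM it stood at 16.3 and 15.4 in RSEM, from 1240 and 1375 expected counts, and at 31.8 and 28.7 in kallisto, from 1733 and 1850 estimated counts. It took a mean of 10.7% of the gene's counts in RSEM and 14.1% in kallisto. It has 706 bases found in no other transcript of the gene, whereas Atp1b2-201 has 5, so the coding form has almost no sequence of its own. The junctions of Atp1b2-201 are not its own either. The junction of exons 5 and 6 also occurs in Atp1b2-204, and the others occur in Atp1b2-202.

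Both forms of the exon 5 boundary are printed to show how a read can tell them apart. The shared upstream flank is the last 30 bases of exon 5, at chr11:69602425-69602454. Capitals mark what follows, which is exon 6 at chr11:69601594-69601623 in the spliced form and the kept intron at chr11:69602395-69602424 in Atp1b2-202.
Atp1b2-201 exon 5 to exon 6: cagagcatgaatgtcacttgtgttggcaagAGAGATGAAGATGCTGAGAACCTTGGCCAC
Atp1b2-202 exon 5 to kept intron: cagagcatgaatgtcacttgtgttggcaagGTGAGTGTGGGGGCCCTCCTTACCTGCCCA
The spliced run occurs in Atp1b2-201 and Atp1b2-204 and the unspliced run only in Atp1b2-202, among the 5 annotated transcripts of the gene. The runs part at the first base after exon 5.

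The other Atp1b2 transcripts depended on the table. Atp1b2-204, a 711-base non-coding model, took 2.24 ± 0.802% of the gene's TPM in RSEM and 22.3 ± 2.10% in kallisto, which is 4.43 and 83.7 TPM. In counts it was a minor form in both, with means of 0.499% of the gene's counts in RSEM and 4.20% in kallisto. Its effective length was 612 bases in RSEM, against 362 and 368 bases in kallisto. Atp1b2-203 is a coding model with an incomplete 5′ end. Every one of its bases also occurs in another transcript of the gene, but not every one of its exon junctions does. It was at 0 in RSEM and took 7.97 ± 1.27% of the gene's TPM in kallisto. As a result the 3 non-coding models together held 11.1 ± 1.02% of Atp1b2 TPM in RSEM, against 30.7 ± 1.46% in kallisto.

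**Figure D3:**
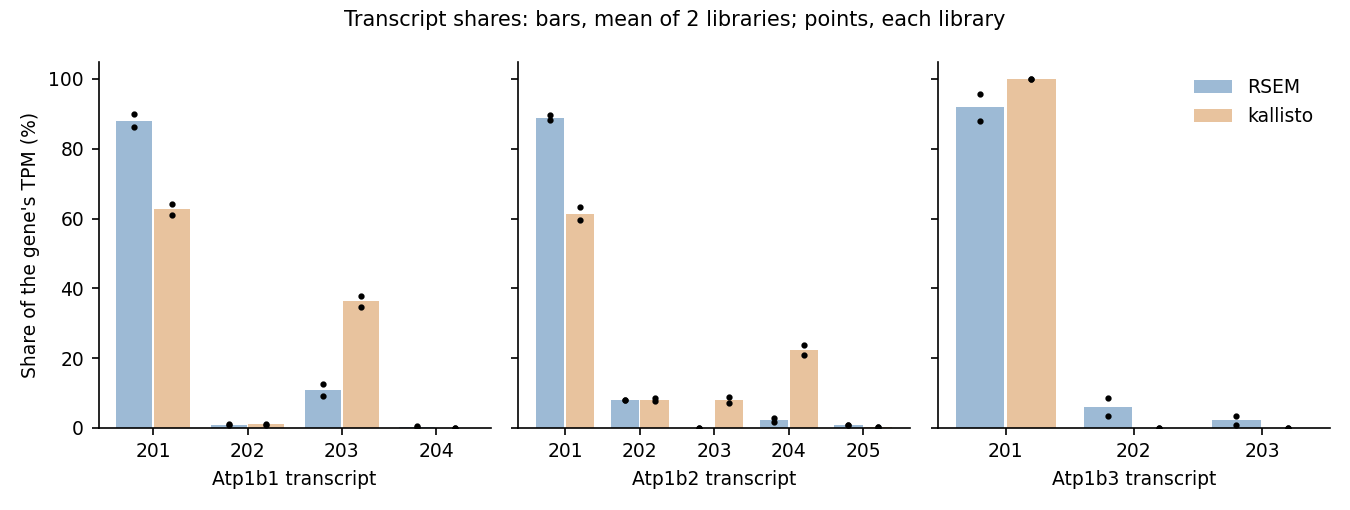
Share of each gene's TPM, in percent, taken by each annotated transcript of Atp1b1, Atp1b2 and Atp1b3; bars are means of the 2 libraries in RSEM and in kallisto, and points are single libraries. Atp1b2-202 stands at 8.08 and 8.04% in the tables, whereas Atp1b1-203 stands at 10.8 and 36.3%.

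In Atp1b3 the share outside the full-length form rested on few reads. Atp1b3-202, a 278-base non-coding model, took 8.57% of the gene's TPM in replicate 1 and 3.44% in replicate 2 in RSEM, from 11 and 5 expected counts. In kallisto it was at 0 in both libraries, as was the gene's remaining minor form. TPM divides by length, so a read on so short a model adds more TPM than a read on the 1994-base Atp1b3-201.

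Of the 9 annotated transcripts of the beta genes other than the 201 forms, 8 had RSEM values above 0, and all 8 had lower TPM in replicate 2. In kallisto 4 of 6 with values were lower there. Over all transcripts averaging at least 1 TPM in RSEM, 80.3% of 8061 retained-intron models and 62.7% of 3557 processed transcripts were lower in replicate 2, against 46.8% of 22810 protein-coding models. Transcripts of the same gene share reads and are not independent. For Atp1b1-203, the largest of the 8, the deposited intervals were 67.1 to 98.8 TPM in replicate 2 and 87.9 to 121 TPM in replicate 1, which overlap.

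The replicates were close for every member with enough reads. After TMM scaling of expected counts, the log2 ratio of replicate 2 over replicate 1 was 0.18 for Atp1b1 (95% counting interval 0.16 to 0.19), -0.02 for Atp1b2 (-0.05 to 0.02) and 0.09 for Atp1b3 (-0.02 to 0.20). With this scaling the counting interval left out 0 for Atp1b1 only, and it covers read sampling alone. Of these 3 members, 0 lay over 2-fold apart, and of 12719 genes averaging 100 expected counts or more, 99 did, or 0.778%, so the members' count matches what most genes show. The median log2 ratio of those genes was 0.04 and the SD 0.28. A larger absolute ratio was seen in 27.3% of them than in Atp1b1, in 58.3% than in Atp1b3 and in 92.3% than in Atp1b2. Scaling to the spike-ins moved the median of all genes to -0.17 and gave Atp1b1 -0.03, Atp1b2 -0.22 and Atp1b3 -0.12. Each of these 3 values lay further from 0 than its counting interval reaches to either side, 0.019, 0.036 and 0.109. Relative to the median of all genes, which a change of scaling factor shifts along with the members, Atp1b1 stood 0.14 higher, Atp1b2 0.06 lower and Atp1b3 0.05 higher. On deposited TPM Atp1b3 stood 0.04 below the median. Atp1a4 was given no ratio, since it averaged fewer than 100 expected counts, with 0 in replicate 1 and 1 in replicate 2.

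**Figure D4:**
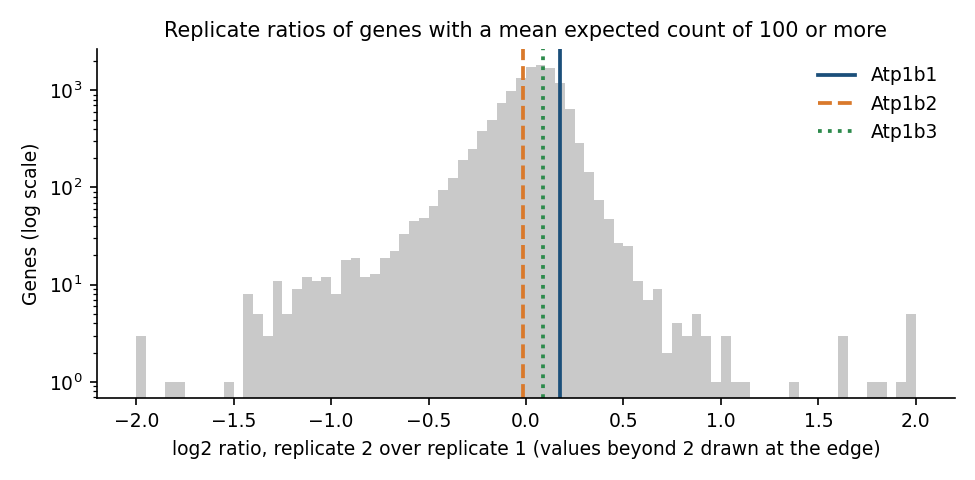
Number of genes (vertical axis, logarithmic) by log2 ratio of replicate 2 over replicate 1 for the 12719 genes averaging 100 expected counts or more, with vertical lines at Atp1b1, Atp1b2 and Atp1b3. The lines at 0.18, -0.02 and 0.09 fall within the central peak of the distribution.

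The 3′ end of Atp1b1 overlaps the end of Nme7, a gene on the opposite strand, over 617 bases, which is 23.9% of Atp1b1-201. Nme7 had 10.5 TPM and 305 counts in replicate 1, and 9.10 TPM and 334 counts in replicate 2. The counts of Atp1b1 were 40599 and 52286. All of these are counts after assignment, so they do not bound how many reads of the overlap went to Atp1b1. The deposited posterior SD of the Atp1b1 gene count was 0 in both libraries. Whether the counting used strand is not given in the sources used here, and how reads in the overlap were assigned was not tested.

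Among related genes, most FXYD and NKAIN genes were present, and the proton-potassium pump genes were at or near 0. Of 15 genes on the list, 9 averaged at least 1 TPM, a share close to the 58.9% of all nuclear protein-coding genes. All 9 lay below Atp1b2, and the 3 highest, Fxyd7, Fxyd1 and Fxyd6, lay above Atp1b3. In kallisto Nkain4, with 52.7 and 51.1 TPM, also lay above Atp1b3, with 46.7 and 48.0 TPM.

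The FXYD genes encode small membrane proteins that bind the pump, and 5 of 7 reached 1 TPM. Fxyd7, known as a brain form, had 67.0 TPM in replicate 1 and 71.7 TPM in replicate 2, a mean of 69.3 ± 3.32 TPM. Fxyd1, or phospholemman, had 48.0 and 40.4 TPM, a mean of 44.2 ± 5.36. Fxyd6, or phosphohippolin, had 35.0 and 46.1 TPM, a mean of 40.6 ± 7.83. The RSEM values of Fxyd1 and Fxyd6 overlapped between libraries, so their order is not settled there. In kallisto Fxyd1, with 85.5 and 77.9 TPM, lay above Fxyd6, with 59.4 and 76.9 TPM, by a narrow gap. Fxyd5, or dysadherin, averaged 9.30 ± 0.523 TPM, and Fxyd2, the gamma subunit best known from kidney, 3.68 ± 0.212 TPM. Fxyd3 averaged 0.240 TPM and Fxyd4 had 0 counts.

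The NKAIN genes encode membrane proteins named for their interaction with the pump, and all 4 were present. Nkain4 averaged 26.4 ± 0.707 TPM, Nkain1 16.7 ± 1.25 and Nkain3 10.4 ± 1.29 TPM (SD, n = 2). Nkain2 had 12.65 TPM in replicate 1 and 11.40 TPM in replicate 2, and Nkain3 had 11.3 and 9.47 TPM, so their ranges came close without overlapping. In contrast Atp1b4, a beta-like gene, had 0 counts, as did Atp4b and Atp12a, subunits of proton-potassium pumps. Atp4a, the catalytic subunit of the gastric proton pump, averaged 0.350 TPM from 8 and 3 counts.

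**Figure D5:**
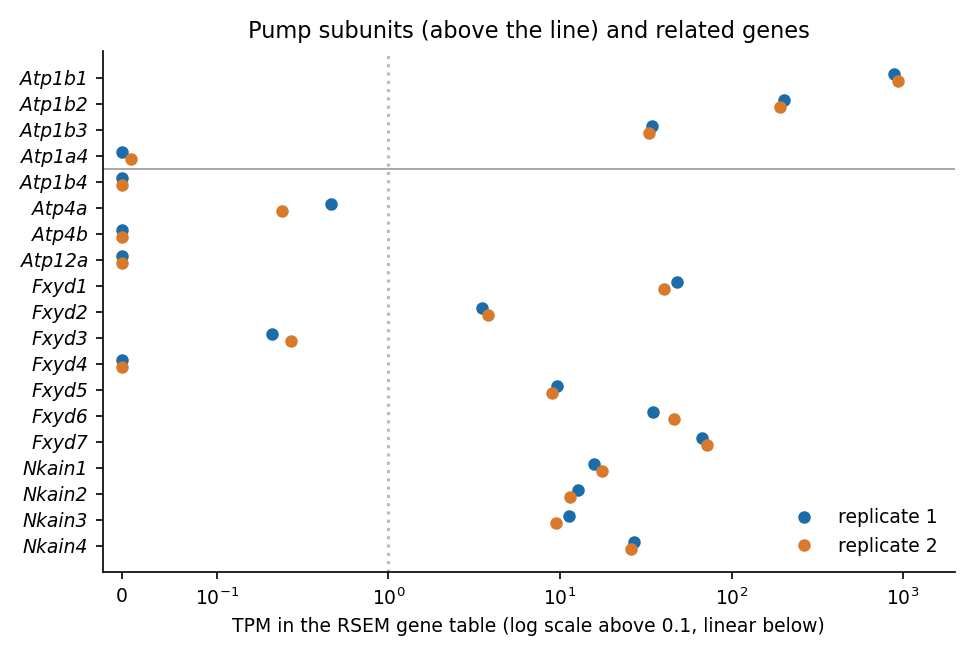
Level in TPM (horizontal axis, logarithmic above 0.1 and linear below) of the 4 members, above the line, and of 15 related genes, below it, with 1 point per library and a dotted line at 1 TPM. The 3 beta genes reach from 33.1 to 935 TPM, and among related genes only FXYD and NKAIN genes pass 1 TPM.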

How the data were processed

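Per the notes that accompany the deposited files, all tables refer to mm10 and GENCODE release M21. The gene table and the RSEM-layout transcript table were derived from a transcriptome alignment, and the kallisto-layout table from the reads directly. The sources used here give no aligner, program version or strand setting. Per the file headers, the deposited tables hold expected counts (kallisto: estimated counts), TPM, a percent of the gene per transcript, and bounds of the TPM interval, treated here as a score. TPM was computed by the authors over all rows, spike-ins included; shares were recomputed here from TPM. The 26249 rows naming no gene held 6 and 2 counts and were left out.

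Means and SDs are over 2 libraries. Replicate ratios used rounded expected counts, TMM factors (edgeR 4.0.16) and a prior count of 0.5; DESeq2 1.42.0 size factors, spike-in scaling, deposited TPM, a prior count of 2 and other count minimums were alternatives. The ratio calculation was tested on simulated data. The counting interval is a 95% normal approximation to Poisson error. Coding sequences were taken from the GENCODE M21 transcripts (GRCm38, the same build as mm10) and aligned with Biopython 1.88.

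Named were all 4 members, transcripts at 5% or more of a member's TPM in either table, and related genes averaging 1 TPM or more; other related genes named were at or near 0. The members and lists were chosen with earlier results of these data known. With 1 group of 2 libraries no p-value was computed.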

Additional observations from a re-analysis of the deposited data

How the results depend on the processing

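Of 62 values recomputed under alternatives that kept both libraries, 21 moved by less than the spread between replicates (for replicate ratios, the counting interval; for counts of genes, 1.5 times) and 41 by more. Leaving out a replicate leaves the other library's value, and with 2 libraries that always lies within 1 SD of their mean, so it says nothing about stability. The order Atp1b1, Atp1b2, Atp1b3, Atp1a4 was the same under every scale tried for the levels.

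The kallisto table gave levels of 1859, 376, 47.3 and 0.017 TPM for Atp1b1, Atp1b2, Atp1b3 and Atp1a4. It gave ratios of 39.3 (Atp1b1 to Atp1b3) and 7.95 (Atp1b2 to Atp1b3), and shares of the beta sum of 81.4% for Atp1b1 and 2.07% for Atp1b3. The 201 forms took 62.6% in Atp1b1, 61.4% in Atp1b2 and 100% in Atp1b3 there. Its log2 replicate ratios were 0.22 for Atp1b1 and 0.029 for Atp1b2, and 186 genes were over 2-fold apart. The cause was not tested.

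Over nuclear protein-coding genes alone, Atp1b1, Atp1b2 and Atp1b3 came to 2050, 442 and 76.2 TPM. Without division by length, they came to 1395, 368 and 40.6 CPM (counts scaled to the library total), with Atp1a4 at 0.014. On counts the ratios were 3.79 (Atp1b1 to Atp1b2), 34.4 (Atp1b1 to Atp1b3) and 9.08 (Atp1b2 to Atp1b3), and the shares 77.3, 20.5 and 2.25%. These scales differ by construction. The posterior mean of Atp1a4 was 0.210 TPM. Over protein-coding transcripts only, Atp1b2-201 and Atp1b3-201 took 100%.

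On deposited TPM the log2 replicate ratios were 0.084 for Atp1b1, -0.074 for Atp1b2 and -0.056 for Atp1b3, and with spike-in scaling -0.031, -0.22 and -0.12. The genes over 2-fold apart numbered 936 among genes averaging 10 expected counts or more and 6540 with no filter, where more genes of few reads enter. Among genes at 1 TPM or more, Atp1b1, Atp1b2 and Atp1b3 lay 0.139, 2.38 and 25.0% from the top, as fewer genes are ranked.

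With 2 libraries of 1 group the SDs are imprecise, and the depth does not separate Atp1a4 from 0. No paired analysis was possible because there is 1 group.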
